A study of Mus musculus with 8 samples.

Results

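The 46 interferon-stimulated genes examined here were taken by name from a list that was chosen with earlier results of these data known. Each was matched to an Ensembl gene of the count table through the GRCm38 annotation. All 46 had 10 or more reads summed over the 8 libraries, so that 46 of the 20610 genes that passed this filter, and of the 55487 genes in the table, are described. Each library was made from 500 long-term hematopoietic stem cells (LT-HSCs, Lin-SCA1+cKIT+ cells that are CD48- and CD150+) sorted from fetal liver at E14.5, and mRNA was read by bulk RNA-seq. The 3 groups carry 2, 1 or 0 intact copies of *Nfkbia*, which encodes IκBα: *IκBα* WT (3 libraries), HET (3) and KO (2). The disrupted allele was that of the *Nfkbia* tm1Bal targeted knockout line, present in every cell of the embryo, and the embryos came from timed matings. The study also kept a *Gfi1:tomato* reporter line, and the labels do not say whether any of these embryos carried it. WT1, WT2 and HET1 were male and are labelled total RNA, whereas WT3, HET2, HET3, KO1 and KO2 were female and are labelled polyA RNA, although the study's methods describe a single library protocol. Sex and the labelled molecule therefore cannot be told apart, and no male KO library was analysed here.

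Interferons are secreted proteins that bind receptors coupled to JAK kinases. Type I interferon acts on its target genes through the interferon-stimulated response element (ISRE), which a complex with STAT2 and IRF9 binds, and type II interferon acts through the gamma-activated site (GAS). The induced genes encode sensors of foreign RNA, enzymes that degrade it, membrane proteins that block viral entry, GTPases that act on vacuoles holding pathogens, and inhibitors that end the signal. IκBα retains NF-κB in the cytoplasm, and κB sites are known in the promoters of some of these genes, *Irf1* among them. Stem cells are known to hold some interferon-stimulated genes, such as *Ifitm* genes, at a steady level in the absence of infection.

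The libraries were first set against their labels, with levels given as CPM, the reads of a gene over its TMM-scaled library size. Between 17895973 and 21720972 reads per library fell on genes, so that 3 reads stood for 0.138 to 0.168 CPM. *Nfkbia* was read at 45.3, 67.7 and 23.4 CPM in WT, 23.4, 28.96 and 14.4 CPM in HET and 0.0489 and 0 CPM in KO (1 and 0 reads). The KO libraries were thus as their labels say. WT3 was level with HET1 and below HET2, so this gene did not separate WT from HET. WT3 and HET3 stood apart from the other libraries. The summed CPM of 10 LT-HSC markers was 1905, 1988 and 284 in WT, 690.3, 577 and 210.4 in HET and 1801 and 1151 in KO, and both KO sums exceeded every HET sum. *Ly6a*, which encodes SCA1, an antigen used in the sort, was read at 62.7, 77.2 and 5 CPM in WT, 19.9, 14.1 and 0 CPM in HET and 51.3 and 41.6 CPM in KO, so that the library labelled HET3 held no read of it. The 8 hepatocyte markers summed to 753 CPM or more in WT3 and HET3 and less elsewhere, at 52.9, 84.1 and 1483 CPM in WT, 145, 207 and 753 CPM in HET and 49.8 and 299 CPM in KO, with *Alb* between 0.209 CPM in WT2 and 379.7 CPM in WT3. Erythroid markers summed to 1616, 1334 and 3749 CPM in WT, 15000, 5850 and 4202 CPM in HET and 769 and 3442 CPM in KO, with HET1 highest. Macrophage and monocyte markers summed to 64.5, 175 and 316 CPM in WT, 189, 48.9 and 77.4 CPM in HET and 31.6 and 108 CPM in KO. The number of genes with 10 or more reads was lowest in HET3 (12308) and WT3 (13392) and reached 15125 in WT2. The main results are given with and without these 2 libraries, together or singly, and the part of other cells in them was not tested. In bulk samples, fewer cells of a type and less RNA per cell cannot be told apart.

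In these LT-HSCs the interferon-stimulated genes stood at their highest in WT1, WT2 and KO1 and at their lowest in WT3 and HET3. Their CPM summed to 3165, 3017 and 821 in the WT libraries, 1532, 1216 and 643 in the HET libraries and 2619 and 1775 in the KO libraries. Both KO sums lay between the lowest and the highest WT sum and above all 3 HET sums. Both KO libraries are female, so with sex in the model the KO estimate is set by the female references WT3, HET2 and HET3. In that fit, 43 of the 46 genes had a positive log2 fold change of KO against WT/HET (55.2% of all genes tested did). The median was 1.57 against 0.13 over all genes, and 1.52 with the female libraries only. In edgeR's quasi-likelihood test none passed the threshold (a log2 fold change over 1 in size at an adjusted p-value under 0.05), and neither did any other gene (0% of all genes tested).

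**Figure D1:**
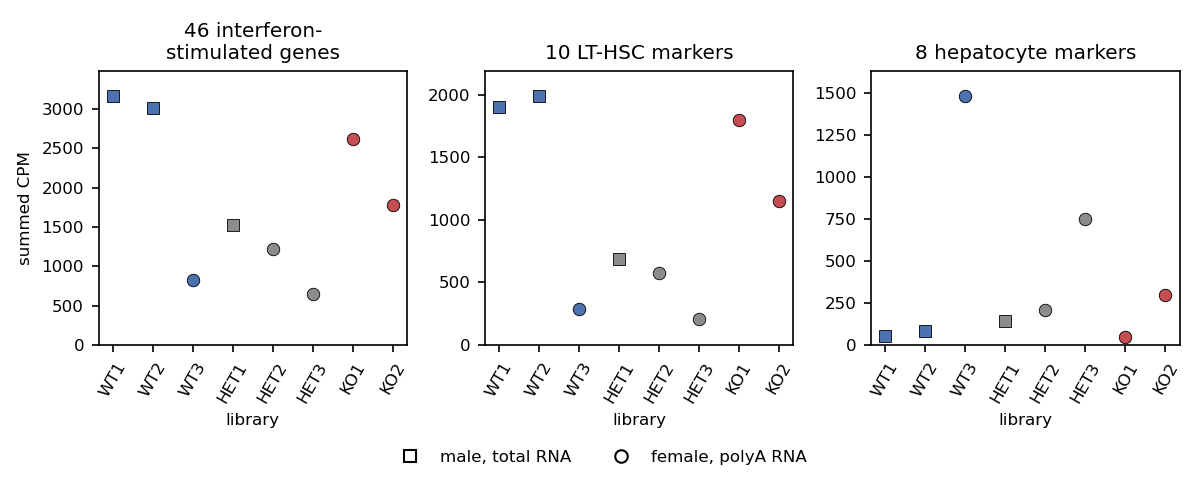
Summed CPM in each of the 8 libraries (x axis) of the 46 interferon-stimulated genes, the 10 LT-HSC markers and the 8 hepatocyte markers, with squares for male and circles for female embryos and each axis starting at 0. The first 2 panels share the order of WT3 and HET3 below all other libraries, where the hepatocyte sums were highest (1483 and 753 CPM).

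The sequences before the transcription starts show what many of these genes share. The RefSeq promoter windows of GRCm38.p6 (250 bases before to 50 bases after a start) held 37 of the 46 genes, and those without one were *Parp9*, *Mx2*, *Iigp1*, *Rtp4*, *Usp18*, *Oas2*, *Parp14*, *Dhx58* and *Mx1*. The core ISRE letters GAAANNGAAA, read on both strands, were found in the windows of 20 of the 37 genes (54.1%) and of 3.99% of the 27025 genes with a window. The GAS letters TTCNNNGAA were found in 13 of the 37 (35.1%) against 9.55% of all, and a κB consensus in 6 (16.2%) against 6.55%. In 16 of the 20 genes an ISRE match lay wholly before the start, and in *Ddx58*, *Ifih1*, *Eif2ak2* and *Ifitm3* the matches lay after it. Neighbouring matches can overlap, and a match is a run of letters, not a measured binding site. Positions refer to RefSeq starts, and the *Irgm1* stretch lies inside the gene's full GENCODE M21 span. The following 50-base stretches, 5′ to 3′ on the gene's strand with the ISRE core in capitals, are from 8 genes with an unadjusted p-value under 0.05 for KO against WT/HET and then from 4 genes above it.
*Socs1* (chr16:10785584-10785633, minus strand): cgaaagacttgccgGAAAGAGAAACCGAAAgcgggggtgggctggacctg
*Irf2* (chr8:46739495-46739544, plus strand): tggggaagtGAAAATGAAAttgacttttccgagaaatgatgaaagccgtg
*Gbp7* (chr3:142530263-142530312, plus strand): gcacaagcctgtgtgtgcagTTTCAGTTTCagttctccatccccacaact
*Igtp* (chr11:58199502-58199551, plus strand): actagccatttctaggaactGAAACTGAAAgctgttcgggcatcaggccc
*Irgm1* (chr11:48871421-48871470, minus strand): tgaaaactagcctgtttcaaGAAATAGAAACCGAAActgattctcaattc
*Oas1a* (chr5:120907526-120907575, minus strand): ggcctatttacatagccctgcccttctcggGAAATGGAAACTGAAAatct
*Ifit1* (chr19:34640784-34640833, plus strand): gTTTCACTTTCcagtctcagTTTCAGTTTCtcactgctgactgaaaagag
*Ifitm2* (chr7:140955978-140956027, minus strand): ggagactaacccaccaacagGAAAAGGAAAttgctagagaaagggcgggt
*Isg15* (chr4:156200855-156200904, minus strand): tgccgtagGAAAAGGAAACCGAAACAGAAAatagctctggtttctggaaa
*Gbp3* (chr3:142559985-142560034, plus strand): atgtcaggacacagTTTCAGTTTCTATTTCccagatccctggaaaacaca
*Bst2* (chr8:71537567-71537616, minus strand): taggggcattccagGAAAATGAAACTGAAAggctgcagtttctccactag
*Stat2* (chr10:128270256-128270305, plus strand): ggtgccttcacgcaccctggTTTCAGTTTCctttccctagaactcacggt

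Both sets hold the same core letters, in *Oas1a*, *Irgm1*, *Socs1*, *Isg15*, *Gbp3* and *Bst2* as overlapping copies. *Irf1* had no ISRE letters in its window but held a GAS match and a κB match, which are shown because the gene codes for a factor that both pathways are known to induce, with the match in capitals.
*Irf1*, GAS (chr11:53769904-53769953, plus strand): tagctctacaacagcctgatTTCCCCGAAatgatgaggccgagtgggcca
*Irf1*, κB (chr11:53769964-53770013, plus strand): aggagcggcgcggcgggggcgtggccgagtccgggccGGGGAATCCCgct

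The median log2 fold change of KO against WT/HET was 1.76 over the 20 genes with ISRE letters, 11 of which had an unadjusted p-value under 0.05 in edgeR, and 1.34 over the 17 genes with a window but without them, 6 of which did. The ranges of the sets, -0.27 to 4.68 and -0.33 to 2.92, overlapped, and the difference between the sets was not tested.

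The interferon-stimulated genes varied more between libraries than most genes did. The SD of log2 CPM over the 8 libraries had a median of 1.46 over the 46 genes and of 0.66 over all genes tested, and ran from 0.19 in *Irf3* to 2.73 in *Oasl2*. WT1 or WT2 was the highest library for 36 of the 46 genes (31.9% of all genes), and WT3 or HET3 the lowest for 41 (37.4% of all genes). WT3 was below both WT1 and WT2 for 42 genes (44.8% of all genes), and both KO libraries lay between the lowest and the highest WT library for 37 (42.8% of all genes). KO1 was above KO2 for 39 genes (50.2% of all genes).

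**Figure D2:**
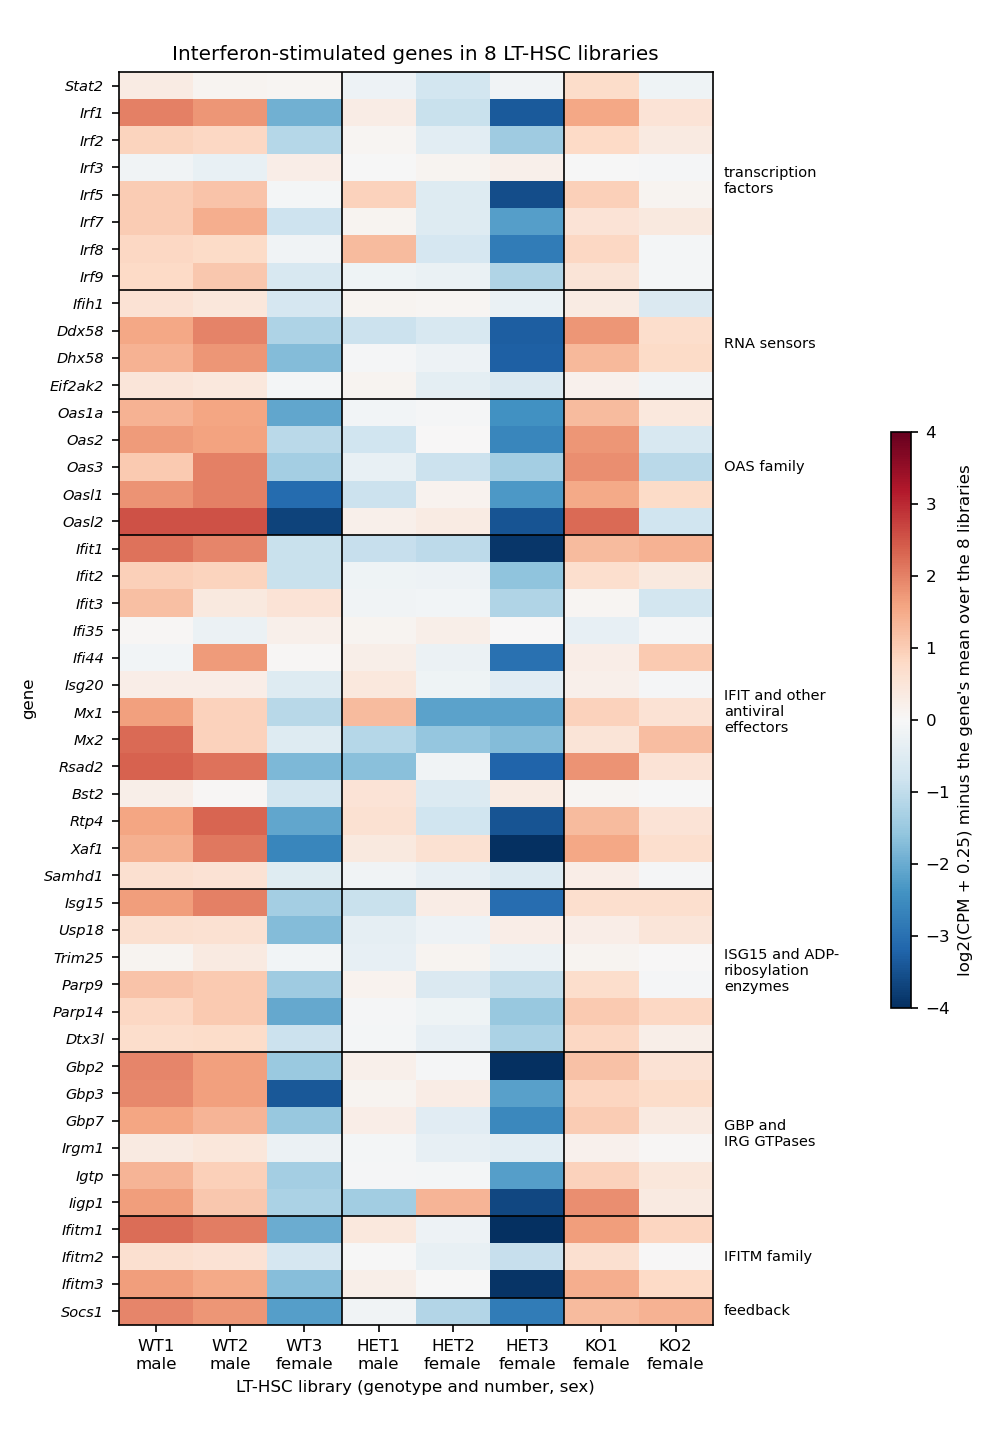
Level of each of the 46 genes (rows, by role) in each library (columns), as log2 of CPM plus 0.25 minus the gene's mean over the 8 libraries, with red above and blue below the mean and colours cut at 4 in size. WT1, WT2 and KO1 are red and WT3 and HET3 blue in most rows, whereas *Irf3*, *Ifi35*, *Trim25* and *Bst2* are near white.

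The KO and WT/HET libraries were then compared gene by gene, to ask whether the loss of IκBα altered these genes. In edgeR's test with sex in the model 0 of the 46 passed the threshold, with adjusted p-values from 0.148 to 0.884. The deleted gene *Nfkbia* did not pass it either (log2 fold change -9.50, adjusted p = 0.0862, edgeR). No gene at all was called in this fit, so the 0 does not set the 46 apart from other genes. At an unadjusted p-value under 0.05, 23 of the 46 were higher in KO (15.7% of all genes) and 0 were lower (9.48% of all genes). DESeq2 with apeglm shrinkage, on the same counts and with the same threshold, called 14 of the 46 higher (6.56% of all genes) and 0 lower (0.607% of all genes). These 14 were *Irf1*, *Irf2*, *Irf7*, *Ddx58*, *Dhx58*, *Oas1a*, *Mx1*, *Rtp4*, *Parp9*, *Parp14*, *Dtx3l*, *Gbp7*, *Ifitm3* and *Socs1*. No gene had both KO libraries above all 6 WT and HET libraries (3.05% of all genes) or below them (1.79%). Against the 3 female WT and HET libraries both KO libraries were above for 34 genes (27.1% of all genes) and below for 2, *Irf3* and *Ifi35* (21.4%). Against the 3 male ones they were above for 0 (6.18% of all genes) and below for 2, *Isg20* and *Mx1* (5.98%).

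Both the size and the sign of the difference depended on the reference. The median over the 46 genes of the difference in mean log2 CPM was 2.07 for KO minus the female WT and HET libraries and -0.18 for KO minus the male ones. Of the 22 genes with values given by the rule on named genes, 17 had a negative difference from the male libraries (no test), and the other 5 were *Ddx58*, *Dtx3l*, *Oasl1*, *Parp14* and *Socs1*. A fit without the sex term gave a median log2 fold change of 0.34, and 0 genes higher at an unadjusted p-value under 0.05 in edgeR (1.08% of all genes). Leaving out WT3 and HET3 together leaves HET2 as the only female reference. In that fit the median was 0.95 and 5 genes were higher at the same p-value (4.07% of all genes). Leaving out WT3 alone left 14 such genes (10.4% of all genes) and leaving out KO1 left 6 (6.23%), while without HET2 10 genes passed the adjusted threshold (3.54%).

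**Figure D3:**
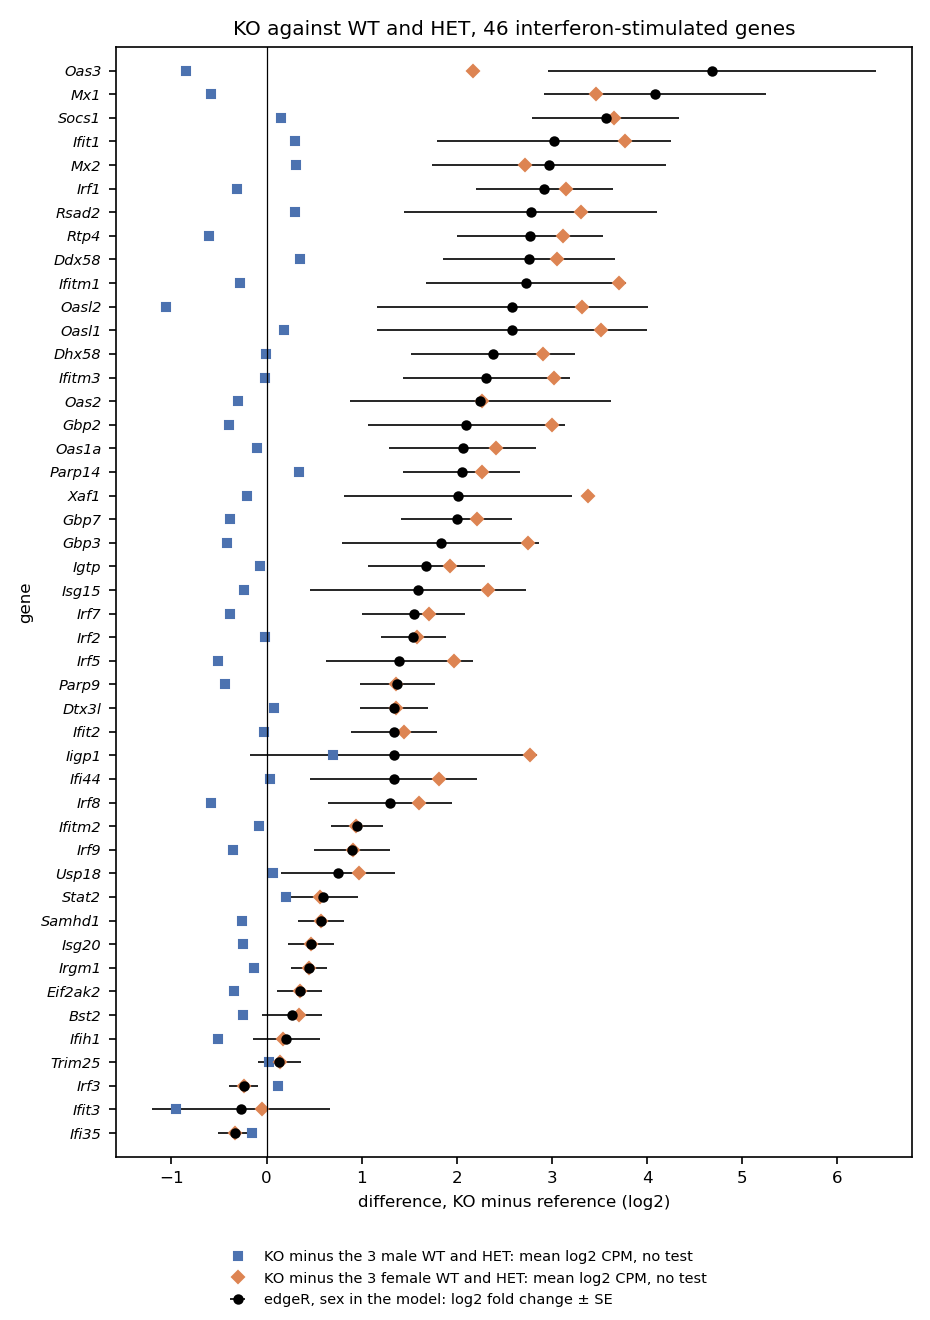
Difference between KO and WT/HET for each of the 46 genes (y axis) on the log2 scale (x axis). Circles are edgeR log2 fold changes with sex in the model and bars are ± SE, and squares and diamonds are differences of mean log2 CPM from the 3 male and the 3 female WT and HET libraries (no test); circles and diamonds lie mostly to the right of 0 and squares around it.

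At an unadjusted p-value under 0.05 in edgeR, 15.7% of all genes were higher in KO and 9.48% lower, the shares to set beside each role group. Among the transcription factors, 3 of 8 were higher in KO at that p-value and 0 were lower, with a group median log2 fold change of 1.35. *Irf1*, an activator that interferon gamma and NF-κB are known to induce, was read at 83.02, 69.7 and 5.26 CPM in WT, 25.3, 10.8 and 1.78 CPM in HET and 60.7 and 29.7 CPM in KO. Its KO levels were above every HET library and WT3 but below WT1 and WT2, and the log2 fold change was 2.92 ± 0.72 (SE; unadjusted p = 0.00332, adjusted p = 0.148, edgeR). *Irf2*, a competitor of IRF1 at the same sites that is known to protect stem cells from interferon, stood at 145, 139.8 and 34.9 CPM in WT, 81.95, 58.1 and 29.2 CPM in HET and 137 and 101 CPM in KO. Here too the KO libraries lay between WT3 and WT2, with a log2 fold change of 1.54 ± 0.34 (unadjusted p = 0.00174, edgeR). *Irf7*, which drives interferon alpha production, had 19.8, 27.1 and 5.31 CPM in WT, 10.5, 6.76 and 1.898 CPM in HET and 14.4 and 12.9 CPM in KO, so that KO exceeded all HET libraries but not WT1 or WT2 (log2 fold change 1.55 ± 0.54, unadjusted p = 0.0206, edgeR). *Irf9*, the DNA-binding part of the type I complex, had a log2 fold change of 0.89 ± 0.40 (unadjusted p = 0.0535, edgeR), and its partner *Stat2* one of 0.60 ± 0.36 (unadjusted p = 0.138, edgeR). *Irf5* and *Irf8*, factors of myeloid cells, were at 1.40 ± 0.77 and 1.30 ± 0.65 with unadjusted p-values of 0.107 and 0.07903 in edgeR. *Irf3*, which is activated by phosphorylation rather than by its own induction, was the steadiest of the 46 genes, at 72.7, 65.5 and 97.1 CPM in WT, 79.3, 87.98 and 93.1 CPM in HET and 79.3 and 77.6 CPM in KO. Its highest library was 1.48 times its lowest, and its log2 fold change was -0.24 ± 0.15 (unadjusted p = 0.1401, edgeR).

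Of the 4 RNA sensors, 2 were higher in KO at an unadjusted p-value under 0.05 and none passed the adjusted threshold (edgeR). *Ddx58*, which encodes RIG-I, the sensor of uncapped RNA ends, was read at 31.03, 41.7 and 4.32 CPM in WT, 5.69, 6.61 and 0.8304 CPM in HET and 36.1 and 17.3 CPM in KO. *Dhx58*, which encodes LGP2, a regulator of the other sensors, was read at 18.02, 23.2 and 1.82 CPM in WT, 6.49, 5.75 and 0.475 CPM in HET and 16.5 and 11.6 CPM in KO. In both genes the KO libraries exceeded all HET libraries and WT3 but not WT2, and log2 fold changes were 2.76 ± 0.91 and 2.38 ± 0.86 (unadjusted p = 0.0152 and 0.0236, edgeR). *Eif2ak2*, the kinase PKR that halts translation on binding double-stranded RNA, ranged over a factor of 2.09, with 32.7, 31.5 and 21.98 CPM in WT, 25.3, 17.9 and 15.6 CPM in HET and 26.03 and 21.1 CPM in KO. The KO libraries overlapped both other groups (log2 fold change 0.35 ± 0.24, unadjusted p = 0.178, edgeR), and without the sex term the direction turned, to -0.037. *Ifih1*, which encodes MDA5, the sensor of long double-stranded RNA, had a log2 fold change of 0.21 ± 0.35 (unadjusted p = 0.572, edgeR).

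The OAS family synthesizes 2′-5′-linked oligoadenylates, which activate RNase L. In KO 2 of its 5 genes were higher at an unadjusted p-value under 0.05 and none passed the adjusted threshold (edgeR). The family had the lowest sums in WT3 and HET3, at 76.7, 82.5 and 3.07 CPM in WT, 18.4, 21.2 and 2.31 CPM in HET and 67.3 and 22.03 CPM in KO. *Oas1a* was the one with the highest level per length (8.46 RPKM on average, reads per kilobase of exon, on the CPM scale). It was read at 28.97, 32.7 and 2.396 CPM in WT, 9.998, 10.5 and 1.84 CPM in HET and 26.5 and 14.7 CPM in KO, with KO above all HET libraries and between WT3 and WT1 (log2 fold change 2.06 ± 0.77, unadjusted p = 0.0272, edgeR). *Oasl1*, an OAS-like protein without the enzymatic activity, stood at 7.11, 8.32 and 0 CPM in WT, 0.904, 2.07 and 0.178 CPM in HET and 5.73 and 3.34 CPM in KO, again with KO above HET (log2 fold change 2.58 ± 1.42, unadjusted p = 0.105, edgeR). *Oas3* was scarce, with 1.08, 2.34 and 0 CPM in WT, 0.266, 0.101 and 0 CPM in HET and 2.06 and 0.0492 CPM in KO, and the 2 KO libraries differed, since KO2 held 1 read. Its log2 fold change of 4.68 ± 1.73 (unadjusted p = 0.0254, edgeR) is the largest of the 46 and rests on KO1. *Oas2* and *Oasl2* had log2 fold changes of 2.25 ± 1.37 and 2.58 ± 1.43 (unadjusted p = 0.139 and 0.106, edgeR), both with KO2 within the HET range. *Oas1a*, *Oas2* and *Oas3* lie within 177 kb at chr5:120730333-120907521, and since uniquely mapped reads were counted, *Oas1a* can lose reads to its near copies.

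Among *Ifit* and other antiviral effectors, 6 of 13 were higher in KO at an unadjusted p-value under 0.05 in edgeR and 0 were lower, with a median log2 fold change of 1.34. *Rtp4*, a chaperone of membrane receptors, was read at 33.2, 56.2 and 2.396 CPM in WT, 16.7, 6.16 and 0.771 CPM in HET and 26.7 and 15.9 CPM in KO. KO2 was thus below HET1, and the log2 fold change was 2.77 ± 0.76 (unadjusted p = 0.00618, edgeR). *Mx1*, a dynamin-like GTPase active against influenza viruses, was scarce, at 3.18, 1.84 and 0.2604 CPM in WT, 2.39, 0 and 0 CPM in HET and 1.81 and 1.377 CPM in KO. Both KO libraries were above the 3 female references, which held 0 to 0.26 CPM, and below the 3 male ones (log2 fold change 4.08 ± 1.17, unadjusted p = 0.00764, edgeR). *Ifit2*, which binds viral RNA and blocks its translation, had 41.7, 39.99 and 11.5 CPM in WT, 19.04, 18.6 and 6.88 CPM in HET and 34.5 and 28.03 CPM in KO, with KO above all HET libraries and below WT1 and WT2 (log2 fold change 1.34 ± 0.45, unadjusted p = 0.0164, edgeR). *Ifit1*, *Mx2* and *Samhd1*, a hydrolase of deoxynucleotides, had log2 fold changes of 3.02 ± 1.23, 2.97 ± 1.23 and 0.57 ± 0.24 (unadjusted p = 0.0379, 0.04104 and 0.0431, edgeR). *Mx2* is annotated as a polymorphic pseudogene in GENCODE M21.

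The other 7 effectors did not reach an unadjusted p-value of 0.05 in edgeR. *Rsad2* (viperin), *Xaf1* and *Ifi44* had log2 fold changes of 2.78 ± 1.33, 2.01 ± 1.20 and 1.34 ± 0.88, *Isg20*, an RNA exonuclease, 0.47 ± 0.24, and *Bst2* (tetherin), which holds budding virus to the membrane, 0.27 ± 0.32. *Ifi35* was among the steady genes, at 59.6, 48.8 and 65.9 CPM in WT, 61.4, 67.7 and 58.7 CPM in HET and 46.2 and 55.6 CPM in KO. Its log2 fold change was -0.33 ± 0.18 (unadjusted p = 0.0988, edgeR), and both KO libraries were below the 3 female references. *Ifit3*, at -0.27 ± 0.94, is counted without reads that also map to its near copy. The *Ifit* genes are neighbours at chr19:34550694-34650009.

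Of the genes of ISG15, a ubiquitin-like modifier, and of ADP-ribosylation, 3 of 6 were higher in KO at an unadjusted p-value under 0.05 in edgeR, and these 3 are neighbours at chr16:35832874-35972605. *Dtx3l*, a ubiquitin ligase, was read at 42.7, 44.04 and 14.3 CPM in WT, 24.99, 20.9 and 10.7 CPM in HET and 46.7 and 30.9 CPM in KO. *Parp9*, its partner in a complex, stood at 39.5, 36.9 and 6.35 CPM in WT, 19.3, 11.7 and 8.72 CPM in HET and 29.1 and 17.2 CPM in KO, and KO2 was below HET1. *Parp14*, a mono-ADP-ribosyltransferase, was read at 10.3, 11.99 and 1.198 CPM in WT, 5.48, 5.05 and 1.84 CPM in HET and 12.1 and 10.3 CPM in KO, so that both KO libraries were level with WT1 and WT2 and above the other 4. The log2 fold changes were 1.34 ± 0.36, 1.38 ± 0.40 and 2.05 ± 0.61 (unadjusted p = 0.00519, 0.00792 and 0.00945, edgeR). The exact two-sided permutation test of log2 CPM, 2 libraries against 6, gave *Parp14* a p-value of 0.143, where the smallest possible is 0.0714. *Parp9* and *Dtx3l* overlap by 458 bases of exon on opposite strands, and the strand setting of the counts is not given in the sources used here, so their reads may not be fully separated. *Isg15* itself was low, at 9.36, 11.9 and 0.937 CPM in WT, 1.383, 3.48 and 0.119 CPM in HET and 4.55 and 4.62 CPM in KO (log2 fold change 1.59 ± 1.13, unadjusted p = 0.197, edgeR). *Usp18*, which removes ISG15 and blocks the type I receptor, and *Trim25*, a ligase that acts on RIG-I, were at 0.75 ± 0.60 and 0.13 ± 0.23 (unadjusted p = 0.242 and 0.574, edgeR).

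The GTPases of the GBP and IRG families, which attack vacuoles that hold pathogens, had log2 fold changes above 0 in 6 of 6 genes, 3 of them at an unadjusted p-value under 0.05 in edgeR. *Gbp7* was read at 120, 103 and 13.96 CPM in WT, 48.8, 29.4 and 6.58 CPM in HET and 81.1 and 51.98 CPM in KO. *Igtp* (IRGM3) had 43.1, 32.2 and 6.302 CPM in WT, 16.3, 15.9 and 3.38 CPM in HET and 32.1 and 22.7 CPM in KO. In both, the KO libraries lay above all HET libraries and WT3 and below WT1 (log2 fold changes 2.00 ± 0.58 and 1.68 ± 0.61, unadjusted p = 0.00821 and 0.0246, edgeR). *Irgm1*, a regulator of the other GTPases that is known to be needed for stem cell maintenance, differed little between libraries, with 99.5, 106 and 66.1 CPM in WT, 72.8, 60.8 and 57.5 CPM in HET and 87.4 and 79.8 CPM in KO. Its log2 fold change was 0.44 ± 0.19 (unadjusted p = 0.0459, edgeR), with KO above all HET libraries. *Gbp2*, *Gbp3* and *Iigp1* had log2 fold changes of 2.10 ± 1.03, 1.83 ± 1.03 and 1.34 ± 1.51 with unadjusted p-values of 0.0753, 0.112 and 0.4002 in edgeR. *Gbp2*, *Gbp3* and *Gbp7* lie side by side at chr3:142530342-142638008, and exons of *Igtp* overlap those of *Irgm2* by 162 bases on the same strand.

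The *Ifitm* genes, whose small membrane proteins block the fusion of entering virus, were the 3 with the highest level per length, at 403 RPKM for *Ifitm3*, 359.8 for *Ifitm2* and 305 for *Ifitm1* on average over the 8 libraries. They held 1638, 1481 and 231 of the summed CPM of the 46 genes in WT, 635, 485 and 132 in HET and 1322 and 815 in KO. *Ifitm3* was read at 534, 478 and 51.1 CPM in WT, 198, 165 and 10.8 CPM in HET and 457 and 294 CPM in KO. *Ifitm1* had the widest span of the family, with 761, 678 and 41.1 CPM in WT, 218, 141 and 4.69 CPM in HET and 525 and 299 CPM in KO, the highest library being 162 times the lowest. *Ifitm2* ranged over a factor of 2.94 only, with 343, 324 and 139 CPM in WT, 219, 179.6 and 117 CPM in HET and 341 and 222 CPM in KO. In all 3 genes the KO libraries were above all HET libraries and below WT1, and log2 fold changes were 2.31 ± 0.88, 2.73 ± 1.05 and 0.95 ± 0.27 (unadjusted p = 0.0291, 0.0309 and 0.00784, edgeR). The 3 genes lie within 55.9 kb at chr7:140954837-141010770.

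*Socs1*, the inhibitor of JAK kinases that closes the interferon signal, had the lowest p-value of the 46 genes. It was read at 14.4, 12.7 and 0.573 CPM in WT, 3.19, 1.46 and 0.297 CPM in HET and 8.86 and 9.79 CPM in KO. The KO libraries were within 1 CPM of each other, above all HET libraries and WT3, and below WT1 and WT2 (log2 fold change 3.56 ± 0.78, unadjusted p = 0.00157, adjusted p = 0.148, edgeR; adjusted p = 0.000951, DESeq2).

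**Figure D4:**
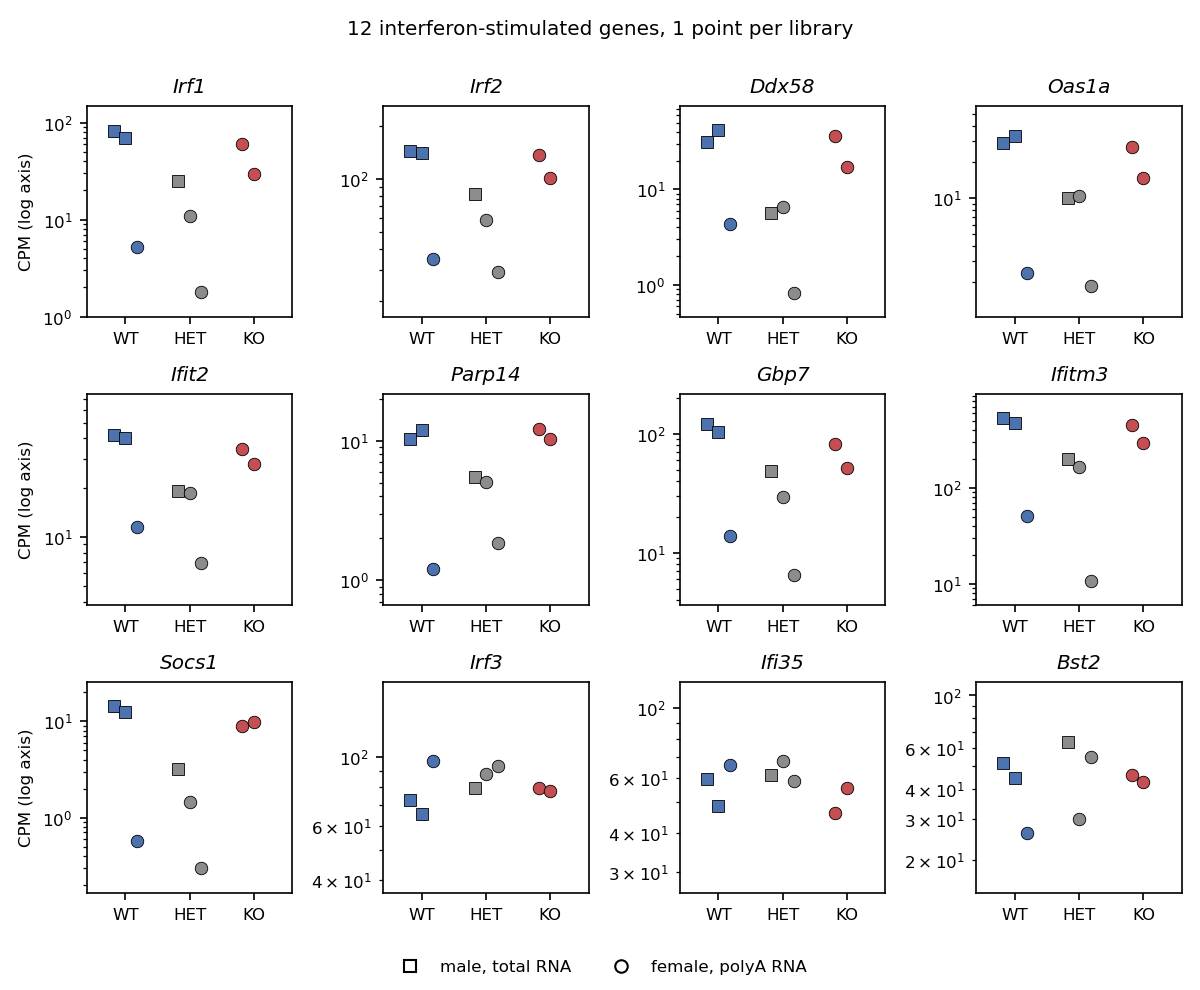
CPM on a log axis of 12 of the genes in each WT, HET and KO library, 1 point each, with squares for male and circles for female embryos. In the first 9 panels the KO points lie above WT3 and all HET points, and in *Irf3*, *Ifi35* and *Bst2* the libraries stay within a factor of 2.43.

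The male libraries were compared with the female ones in the fit over all 8, with genotype (KO or not) in the model. Since no KO library is male, this estimate rests on the 3 male and the 3 female WT and HET libraries. In edgeR 0 of the 46 genes passed the threshold (0.0194% of all genes did), 32 were higher in the male libraries at an unadjusted p-value under 0.05 (18.9% of all genes) and 1, *Irf3*, was lower (13.6%), and the median log2 fold change was 1.84. DESeq2 with apeglm called 25 of the 46 (11.7% of all genes). *Socs1*, *Rtp4* and *Irf1* had log2 fold changes of 3.68, 3.50 and 3.31 (unadjusted p = 0.0009898, 0.00133 and 0.00123, edgeR). This contrast and that of KO against WT/HET share the female WT and HET libraries. Without WT3, 23 genes were higher at the unadjusted p-value (13% of all genes) and without HET3, 28 (13.2%). Without HET1, 21 of the genes passed the threshold in edgeR (14.9% of all genes), and without HET2, 19 did (6.43%).

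HET and WT libraries were compared over their 6 libraries with sex in the model. In edgeR 0 of 46 genes passed the threshold (0% of all genes), 1 was lower in HET at an unadjusted p-value under 0.05 (1.82% of all genes) and 0 were higher (1.8%). DESeq2 called 0 as well, with 2 lower at that unadjusted p-value (2.63% of all genes). The median log2 fold change was -0.41, against 0.0013 over all genes tested, and 35 of the 46 were negative. The lower gene was *Mx2*, with 4.68, 1.71 and 0.469 CPM in WT and 0.213, 0.101 and 0.0593 CPM in HET (log2 fold change -3.21, unadjusted p = 0.0104, adjusted p = 0.932, edgeR). Its HET2 and HET3 levels lay below the floor of 3 reads, which stood for 0.14 and 0.152 CPM in these libraries. The estimate leaned on single libraries. Without HET1 the median was 0.34, and without HET3 it was -0.22 with 1 lower gene (1.28% of all genes). Without WT3 the median was -1.18 and 5 genes were lower (4.54% of all genes), and without HET2 26 were lower (9.02%) and 6 passed the threshold (0.655%).

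The genes that start the response were also examined. Of 21 interferon ligands 1 reached 10 reads over the 8 libraries, *Ifnb1*, with 10 reads in all, and the other 20 had 0 to 9. At an unadjusted p-value under 0.05 in edgeR, 15.7% of all genes were higher in KO and 9.48% lower. Of 14 receptor, JAK and STAT genes tested, 4 were higher and 1 was lower at that p-value, with a median log2 fold change of 0.25. The lowest p-values of this list belonged to *Ifnar1*, a chain of the type I receptor, *Stat3* and *Jak1*, with log2 fold changes of 1.07 ± 0.30, 0.76 ± 0.26 and 0.73 ± 0.26, and the gene on the lower side was *Ifngr1*, a chain of the type II receptor, at -0.71 ± 0.30 (unadjusted p = 0.0431, edgeR).

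Among 15 genes of nucleic acid sensing upstream of interferon, 5 were higher (15.7% of all genes) and 0 lower (9.48%) at that p-value. *Ikbke*, the kinase IKKε that activates IRF3 and that NF-κB is known to induce, was read at 17.2, 20.4 and 1.15 CPM in WT, 15.5, 3.38 and 1.602 CPM in HET and 19.7 and 13.03 CPM in KO, a log2 fold change of 3.00 ± 0.46 (unadjusted p = 0.000156, adjusted p = 0.148, edgeR). *Ticam1*, the adaptor TRIF of Toll-like receptor 3, stood at 6.08, 6.1 and 3.54 CPM in WT, 5.32, 4.24 and 2.91 CPM in HET and 9.2 and 10.2 CPM in KO. Its KO libraries were above all 6 others, which held for 2 genes of this list, 3.05% of all genes and 0 of the 46. The log2 fold change of *Ticam1* was 1.44 ± 0.34 (unadjusted p = 0.00266, edgeR). The third lowest p-value was that of *Unc93b1*, a carrier of endosomal receptors, at 1.17 ± 0.43.

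Of 55 other interferon-induced genes tested, 25 were higher and 2 lower in KO at an unadjusted p-value under 0.05 in edgeR. Over all genes these shares were 15.7% and 9.48%. The median log2 fold change of the 55 was 1.65. The lowest p-values were those of *Parp12*, *Trim34a* and *Pml*, with log2 fold changes of 2.58 ± 0.60, 2.41 ± 0.56 and 0.71 ± 0.17. The lower genes were *Ifi30*, a lysosomal thiol reductase, at -2.02 ± 0.77 and *Cmpk2*, a mitochondrial nucleotide kinase, at -0.72 ± 0.27. Of 9 negative regulators 4 were higher and 1 lower, the lowest p-values being those of *Ptpn6*, *Cish* and *Pias3* with 1.23 ± 0.27, 1.91 ± 0.55 and 1.49 ± 0.49. Over the 10 LT-HSC markers the median log2 fold change was 2.76, with all 10 higher at an unadjusted p-value under 0.05, and over the 8 hepatocyte markers it was -2.62 with 0 at that p-value. These marker values run with the order of the libraries seen in the 46 genes, and their part in the differences was not tested.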

How the data were processed

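Bulk RNA-seq libraries of 3 *IκBα* WT, 3 HET and 2 KO samples of LT-HSCs were used, grouped by the condition in their labels. The authors deposited raw read counts per Ensembl gene. Per the methods and the submitters' notes, reads were trimmed with Trim Galore 0.6.6, aligned to GRCm38 with STAR 2.7.8, and uniquely mapped reads were counted by STAR, which lowers the counts of near-identical genes. The authors also deposited log2 values, variance-stabilized with DESeq2 1.38.3 and corrected for sex with limma, which were used here only as an alternative. Between 17895973 and 21720972 reads per library limit the precision of low genes, and 3 reads were taken as the floor.

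Genes with 10 or more reads over the 8 libraries were kept. edgeR 4.0.16 in R 4.3.3 scaled the counts (TMM) and ran its quasi-likelihood test in the legacy form over all 20610 genes, with Benjamini-Hochberg adjustment. Sex was a covariate, and WT and HET were pooled as the reference, as in the study's methods. Since both KO libraries are female, the KO log2 fold changes then rest on the female references WT3, HET2 and HET3. A gene was called where the log2 fold change was over 1 in size and the adjusted p-value under 0.05. Single genes were also compared by exact permutation tests of log2 CPM with a prior count of 2. RPKM values divide by GENCODE M21 exon lengths. Tests were tried on simulated data.

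The members and lists were chosen with earlier results of these data known. Values in every library are given for up to 3 genes with the lowest p-value in each role group, the 3 genes with the highest level per length and genes past the threshold or beyond all other libraries, and *Isg15*, *Irf3*, *Ifi35* and *Mx2* were added after their values were seen. A further gene of the pathway that the rule names is not reported here. The alternatives were DESeq2 1.42.0 with and without apeglm 1.24.0, other normalizations and filters, only female libraries, only WT or only HET as the reference, a replicate block, leaving out the sex term, the authors' log2 values and each library left out in turn. Chosen after seeing the data were the fits without WT3 and HET3 and without WT1 and WT2, the edgeR version 4 form, and the differences from male or female references.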

Additional observations from a re-analysis of the deposited data

Results flagged for a closer look

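Over the 6 WT and HET libraries, the gap of the most extreme library from its neighbour was divided by the range for 28 values, those of the named genes, of *Nfkbia* and of the summed levels. One value (1) passed Dixon's critical ratio, the summed CPM of the erythroid markers, where HET1 was highest with a ratio of 0.67. About 1 in 20 such values is expected to pass by chance. The summed level of the 46 interferon-stimulated genes in HET1, 1532 CPM, was the third highest of these 6.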

How the results depend on the processing

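For KO against WT/HET, 0 genes passed the threshold in edgeR, but 14 did in DESeq2 with apeglm (7.16% of all genes) and 15 without shrinkage (9%). With no filter beyond 1 read, 11 did (3.51%). With WT alone as the reference, WT3 is the only female reference, and the median was 2.19. Without WT3 and HET3 together, HET2 is the only female reference. Leaving out one WT or HET library at a time gave 0 to 10 genes past the threshold. The 23 genes higher at an unadjusted p-value under 0.05 became 0 without the sex covariate (1.08% of all genes), 12 with HET alone as the reference (7.86%) and 5 without WT3 and HET3 together (4.07%), and between 6 and 28 without single libraries. With upper-quartile normalization 1 gene was lower. Same-numbered libraries deviated from their group means with correlations of -0.35 to 0.59, so the numbers were not taken as pairs, and with the replicate block 2 genes were higher and the median was 0.87. The median of 1.57 turned to -0.18 against the male references (no test), and was 0.48 with apeglm and 0.72 in the authors' log2 values. For HET against WT, the replicate block gave 20 lower genes, no sex covariate 3, DESeq2 with and without shrinkage 2, and 10 or more reads in every library 0. Leaving out single libraries gave 0 to 6 past the threshold, 0 to 3 higher, 1 to 26 lower, and medians from -1.18 to 0.34. For male against female, 25 genes passed the threshold in DESeq2 with apeglm (11.7% of all genes) and 27 without shrinkage (14.54%), and 0 to 21 with single libraries left out. The lower gene was lost (0) with library sizes alone, with WT and HET only, which also left 19 higher, and in some fits with one library left out (0 to 1). Among the 22 named genes *Eif2ak2* changed direction in a tested fit, to -0.037 without the sex covariate, and 17, *Eif2ak2* included, had a negative difference from the male references (no test). In 60 single-gene results an alternative passed a threshold that the reported fit did not. The cause was not tested in any of these. Other counts, those with WT alone as the reference aside, stayed within 1.5 times their value. Depth limits *Oas3*, *Mx1*, *Mx2* and *Oas2*, with 129 to 372 reads in all.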
